A study of Arabidopsis thaliana with 6 samples.

Results

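The genes described here are the UDP-glycosyltransferases (UGTs) of Arabidopsis thaliana whose symbol in the array annotation is UGT followed by digits, a letter and digits, with UGT76B1 left out. The rule found 46 genes among the 13286 genes fitted, each with 1 probe set. The RefSeq annotation holds 58 symbols of this form, against 47 with a probe set annotated to them alone, UGT76B1 included. They fall into 11 groups by number, with 9 genes in group 71, 4 in group 72, 7 in group 73, 3 in group 74, 7 in group 76, 3 in group 78, 5 in group 84, 5 in group 85 and 1 each in groups 80, 87 and 88. Leaves of plants 3 to 4 weeks old were harvested 2 hours after spraying. The mock group was sprayed with 0.01% Silwet, a wetting agent, and the SA group with the same Silwet solution containing 1 mM salicylic acid (SA), a phenolic hormone of plant defence. Each group has 3 biological replicates on 1 Affymetrix ATH1 array each. The labels name no ecotype or genotype and do not say what a replicate number marks or how many plants made a sample.

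UGTs transfer a sugar from a nucleotide sugar donor to small molecules such as hormones, phenylpropanoids, flavonoids, sterols and foreign compounds. The sugar makes the acceptor more water-soluble, and for hormones it usually gives an inactive or stored form. The group number and letter sort the enzymes by how alike their protein sequences are, and many close relatives lie side by side in the genome. SA itself is stored in plants as glucosides, so the family holds both enzymes that act on SA and enzymes of unrelated pathways.

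Levels are RMA log2 signals, on which a difference of 1 is a doubling. They were compared within a gene only, because probe sets differ in brightness. The median signal over all genes was 7.01 to 7.13 per array, and correlations between arrays were 0.962 to 0.987. Deviations from the group mean were shared by arrays with the same replicate number (correlations of 0.76, 0.48 and 0.56), so each result is given without and, where the call differs, with the replicate number as a block. The spike-in probe set AFFX-DapX-3_at read 11.52 and 11.42 on the mock and SA arrays numbered 1 and 8.27 to 8.44 on the other 4. In whole leaves, fewer cells of a type and less RNA per cell cannot be told apart.

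At 2 hours after SA, 26 of the 46 UGT genes (56.5%, against 48% of all genes) had a higher mean signal than in mock leaves and 20 a lower one, and the differences were unevenly spread over the groups. All 7 genes of group 73 were higher, 4 of them by more than 1 log2 unit, and UGT76E12 and UGT87A2 were higher by more than 1 as well. UGT85A4 and UGT85A5 were lower by more than 1 log2 unit. Without SA replicate 3, group 73 kept 7 of 7 positive changes, but only 2 of them reached 1 log2 unit and its median went from 1.51 to 0.90. With 32 linear units added to every signal, 4 members reached 1 log2 unit up, 3 of them in group 73, and 1 member reached it down. The median of group 73 was then 0.99. The median change of the family was 0.085 log2 units, against -0.0077 over all genes, and the median size of a change without its sign was 0.42, against 0.12. Changes ran from -1.23 in UGT85A5 to 1.78 in UGT73B5.

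By limma's moderated test with Benjamini-Hochberg adjustment over all genes, 1 of the 46 genes passed an adjusted p of 0.05, the fall of UGT85A4, where 1.63% of all genes passed. With the replicate number as a block, 11 of 46 genes (23.9%) passed, against 9.91% of all genes. The 7 rises were UGT73B1, UGT73D1, UGT76E12, UGT87A2, UGT74D1, UGT84A3 and UGT71C1, 15.2% of the family against 5.15% of all genes. The 4 falls were UGT85A4, UGT72B3, UGT71C4 and UGT71B1, 8.70% against 4.76%. The count with the block was 3, 11 and 6 when both arrays numbered 1, 2 or 3 were left out. The calls over all genes fell as well, from 1316 to 404, 813 and 815. UGT85A4 and UGT87A2 passed in all 9 fits with the block.

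**Figure D1:**
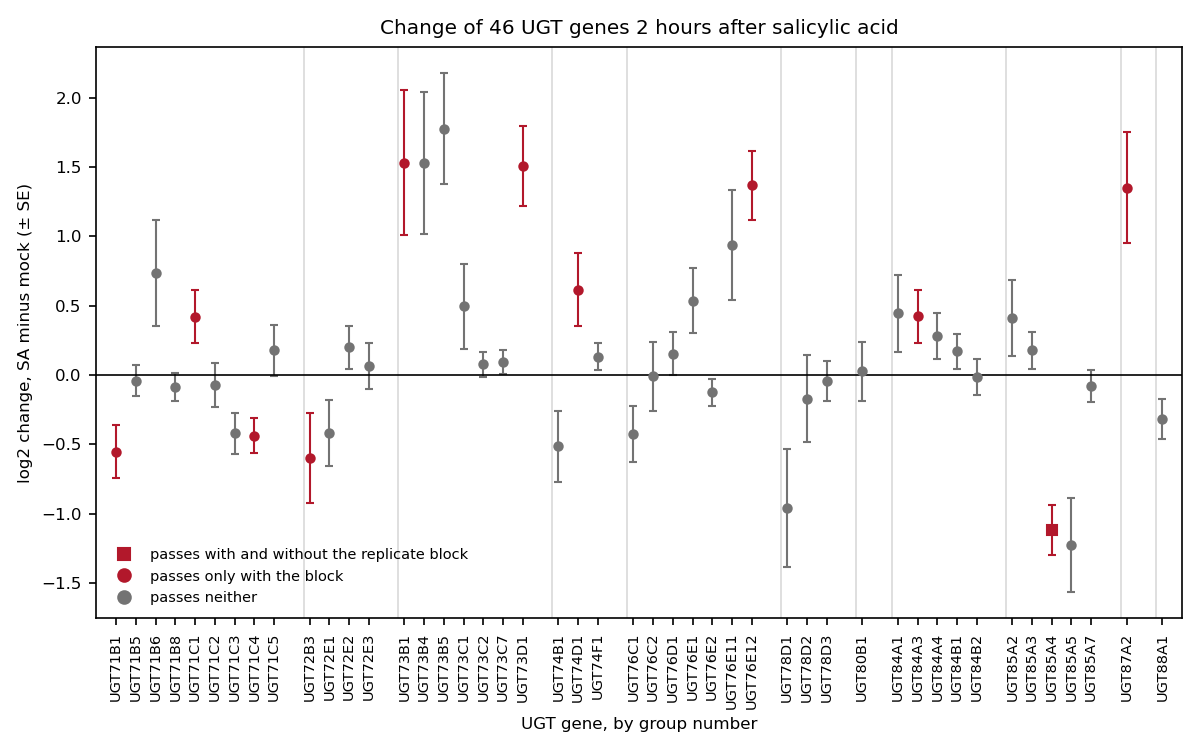
Log2 change (SA minus mock, vertical axis, with its standard error) of the 46 UGT genes in order of group number, with grey lines between groups. Red marks genes that passed with the replicate block, and the square marks UGT85A4, which passed without it too. The 7 genes of group 73 all lie above 0, from 0.077 to 1.78.

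An unadjusted p under 0.05 was found for 11 members (23.9%, against 13.8% of all genes), of which 6 were higher (13.0%, against 6.42%) and 5 lower (10.9%, against 7.4%). All 3 SA arrays lay above all 3 mock arrays in 9 members (19.6%), against 8.57% of all genes, and below them in 4 members (8.70%), against 9.45%. Among the 9, the lowest SA array was only 0.0096 above the highest mock array in UGT76E1, 0.0101 in UGT73C7 and 0.026 in UGT74F1. This margin reached 0.94 in UGT73B5. Changes of at least 1 log2 unit up were found in 6 members (13.0%), against 1.88% of all genes, and down in 2 (4.35%), against 0.956%. SA exceeded mock in all 3 same-numbered pairs in 21 members (45.7%), against 20.4% of all genes, and was below it in all 3 in 13 (28.3%), against 24.7%. The share lower in every pair and the share wholly below mock were therefore near those of all genes. The lower shares by unadjusted p and by 1 log2 unit were above those of all genes, on 5 and 2 members. On the higher side all of the shares were above those of all genes. Part of this came from group 73, whose genes were all higher, so a fall in these shares without it was built in. Among the other 39 members, 4 lay wholly above mock (10.3%), 19 had a change above 0 (48.7%) and 2 a change of at least 1 log2 unit up (5.13%). Of the same 39, 14 were higher in all 3 pairs (35.9%). With the block 5 of them passed as rises (12.8%, against 5.15% of all genes). The median change of the 39 was -0.0092.

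**Figure D2:**
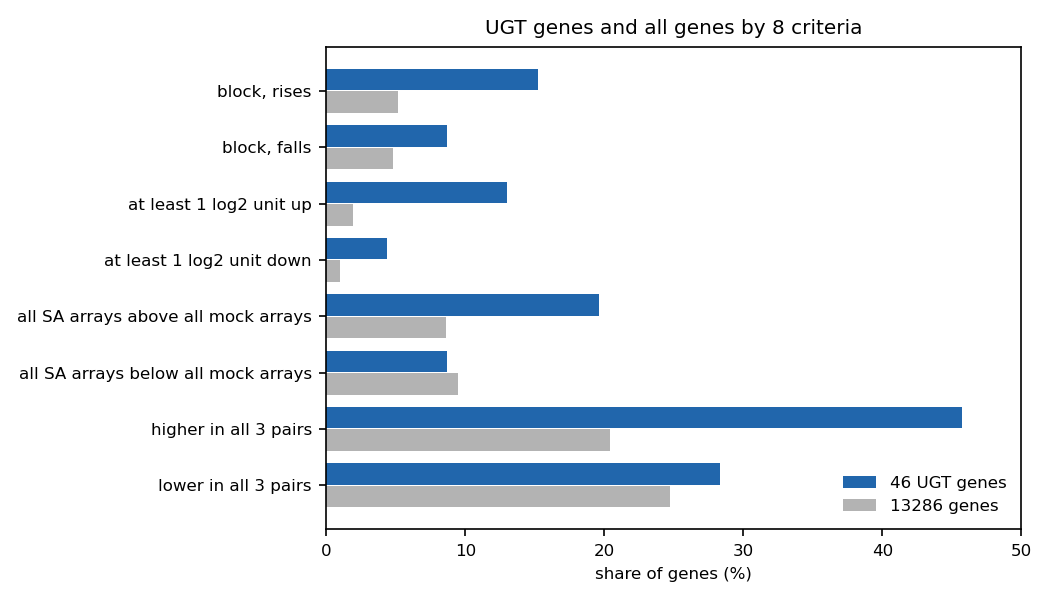
Share of the 46 UGT genes (blue) and of all 13286 genes (grey), in percent, that met each of 8 criteria: passing with the replicate block, a change of at least 1 log2 unit, groups that do not overlap, and the same direction in all 3 pairs. For a change of at least 1 log2 unit up the bars are at 13.0% and 1.88%.

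Among members known to act on SA or its methyl ester, UGT74F1, which makes SA glucosides, had log2 signals of 6.07, 5.96 and 6.06 in mock replicates 1 to 3 and 6.11, 6.10 and 6.29 after SA. Every SA value was above every mock value, yet the change was only 0.13 ± 0.096 (SE), with a 95% interval of -0.10 to 0.36 (limma adjusted p = 0.690, and 0.443 with the block). UGT71C3, which glucosylates methyl salicylate, had 5.65, 5.27 and 5.65 in mock and 4.91, 5.20 and 5.20 in SA leaves. Its SA values all lay below the mock values, with a difference of only -0.073 in pair 2, and its change of -0.42 ± 0.15 did not pass (limma adjusted p = 0.281, and 0.147 with the block). UGT74F2, of the same group and letter as UGT74F1, is not among the 46, so the values here do not cover it. UGT76B1, an SA glucosyltransferase left out by the rule, differed by 6.43 log2 units, against 1.78 in the highest of the 46.

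Group 73 holds enzymes linked to stress, foreign compounds and hormone conjugation. The 3 measured genes of its B branch had changes of 1.53 to 1.78 log2 units. UGT73B5, which is needed for full resistance in the hypersensitive response to Pseudomonas, had log2 signals of 8.27, 8.15 and 7.74 in mock and 9.54, 9.21 and 10.74 in SA leaves. All SA arrays were above all mock arrays, and SA replicate 3 was the highest. The change was 1.78 ± 0.40, a 3.43-fold difference (limma adjusted p = 0.105, and 0.0501 with the block).

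UGT73B4, an enzyme that can conjugate the explosive TNT, read 5.10, 5.24 and 5.15 in mock leaves and 6.21, 5.93 and 7.95 in SA leaves. Mock values were tightly grouped and SA replicate 3 stood 1.74 above the next SA array. The change of 1.53 ± 0.51 did not pass (limma adjusted p = 0.249, and 0.0833 with the block), and it was 0.90 without SA replicate 3. In the RefSeq annotation of assembly TAIR10.1, UGT73B4 (AT2G15490) lies within the span of UGT73B5 (AT2G15480), so the probe sets of the pair may not be independent; the part of this in their shared pattern was not tested.

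UGT73B1, which glucosylates abscisic acid in vitro, read 6.11, 6.02 and 6.76 in mock and 7.11, 7.35 and 9.03 in SA leaves. The arrays numbered 3 were the highest in both groups, and the groups did not overlap. Its change of 1.53 ± 0.52 (2.89-fold) passed only with the block (limma adjusted p = 0.0217, against 0.259 without). Its SA minus mock difference was 1.00 in pair 1, 1.33 in pair 2 and 2.27 in pair 3, and the change was 0.93 without SA replicate 3.

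UGT73D1 (AT3G53150) read 5.22, 5.16 and 5.01 in mock and 7.02, 5.95 and 6.94 in SA leaves. SA replicate 2 was the lowest of the SA arrays and still above all mock arrays. The change of 1.51 ± 0.29 (2.85-fold) had a limma adjusted p of 0.0692 without the block and passed with the block, at 0.0197. Without SA replicate 2 it was 1.85 (adjusted p = 0.0433 without the block), and without any other single array 1.32 to 1.56 (adjusted p from 0.144 to 0.256).

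The 3 genes of the C branch differed little. UGT73C1, which acts on cytokinins and on TNT, had a change of 0.50 ± 0.31, with 1.19 in pair 3 and 0.24 and 0.059 in pairs 1 and 2. UGT73C2 and UGT73C7, an enzyme acting on hydroxycinnamic acids, had changes of 0.077 and 0.093 and were among the 7 members below the 25th percentile of mean signal. All 7 genes of group 73 were higher in every pair, and the median differences of the group were 1.00, 0.68 and 1.93 in pairs 1, 2 and 3. The difference in pair 3 was the largest of the 3 in 5 of the 7 genes. All 7 changes stayed above 0 with quantile normalization repeated. Centring the arrays on their medians shifts all genes alike, and here it raised the lowest of the 7 changes from 0.077 to 0.12. Adding 32 linear units cannot turn the sign of a gene that is higher in every pair. It gave changes of 0.99 in UGT73D1, 1.04 in UGT73B4, 1.25 in UGT73B1 and 1.67 in UGT73B5.

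**Figure D3:**
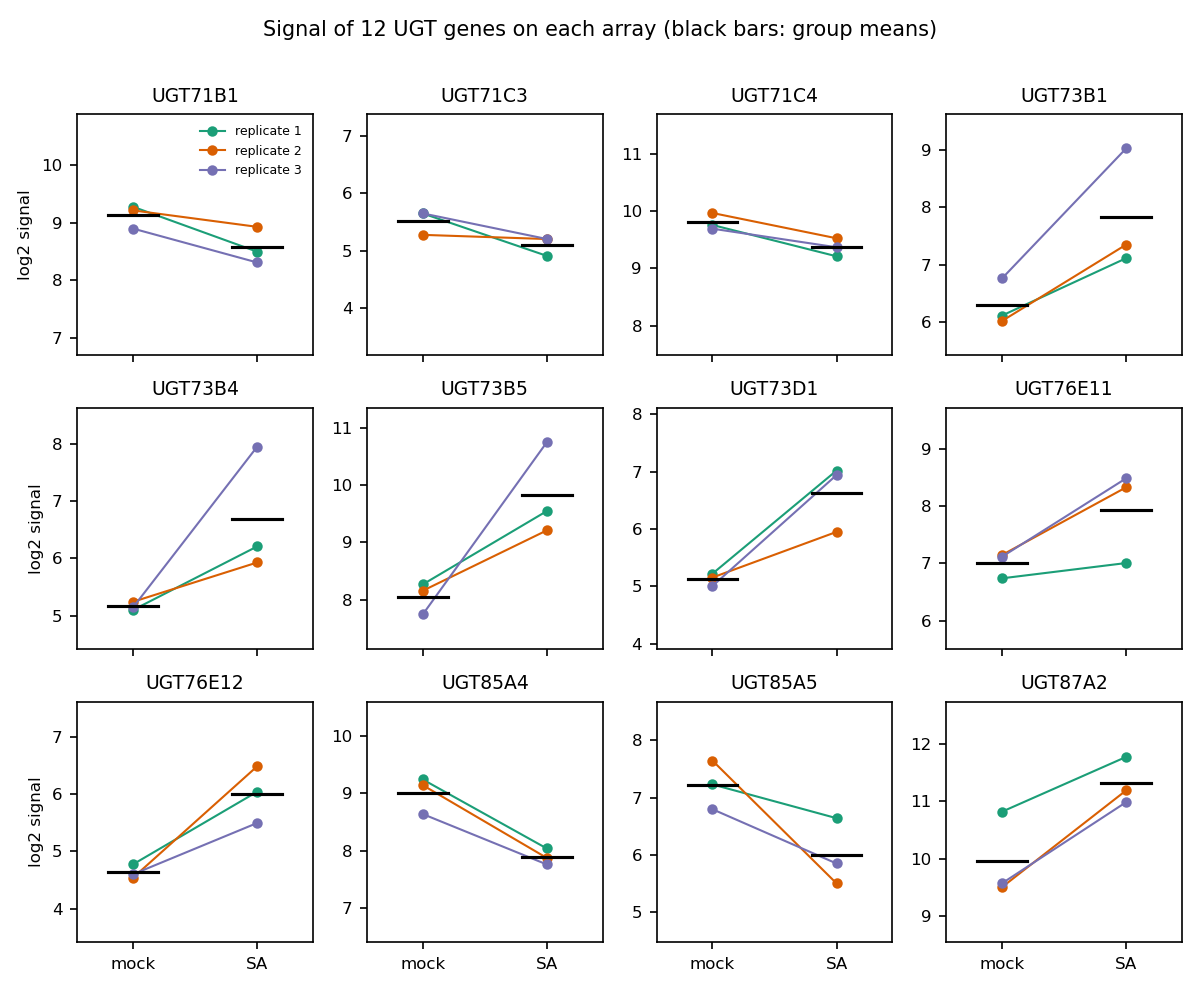
Log2 signal (vertical axis, of equal height in every panel) on the mock and SA arrays for the 12 UGT genes with the smallest unadjusted p. Lines join arrays of the same replicate number and black bars are group means. SA replicate 3 is the highest array for UGT73B1, UGT73B4 and UGT73B5, while for UGT73D1 it lies beside SA replicate 1.

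Group 76 holds enzymes of cytokinin, jasmonate and flavonoid conjugation. Its E branch had 3 of 4 genes higher after SA. UGT76E12 (AT3G46660) read 4.78, 4.54 and 4.60 in mock leaves and 6.04, 6.48 and 5.50 in SA leaves. The lowest SA array was 0.72 above the highest mock array. The change of 1.37 ± 0.25 (2.58-fold) had a limma adjusted p of 0.0615 without the block and 0.0177 with it, and it shrank to 0.77 with 32 linear units added, since its mock signal is low.

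UGT76E11, a flavonol glucosyltransferase gene close to it on chromosome 3, read 6.74, 7.15 and 7.12 in mock and 7.01, 8.33 and 8.48 in SA leaves. SA replicate 1 lay within the mock range and the other 2 SA arrays above it. The change was 0.94 ± 0.40 and passed in neither fit (limma adjusted p = 0.374, and 0.0635 with the block). UGT76E1, which glucosylates a hydroxylated jasmonate, had a change of 0.54 with pair differences of 0.96, 0.51 and 0.13, and UGT76E2 one of -0.13. The cytokinin N-glucosyltransferases UGT76C1 and UGT76C2 had changes of -0.43 ± 0.20 and -0.0092 ± 0.25, and UGT76D1, which acts on dihydroxybenzoic acids, one of 0.15.

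Group 85 held the 2 lowest changes of the family, with 2 of its 5 genes above 0 and 3 below. UGT85A4 (AT1G78270) read 9.24, 9.14 and 8.64 in mock leaves and 8.04, 7.87 and 7.76 in SA leaves. All 3 SA arrays were at least 0.60 below all mock arrays, and the pair differences were -1.20, -1.27 and -0.88. The fall of UGT85A4 was -1.12 ± 0.18 log2 units, with a 95% interval of -1.55 to -0.68 (limma adjusted p = 0.0467, and 0.00668 with the block). Without any 1 of the 6 arrays the call without the block was lost (adjusted p from 0.0561 to 0.198), while the change stayed between -1.30 and -0.9997. It was lost as well with the arrays centred on their medians, with 32 linear units added and with a trended and robust variance prior (adjusted p = 0.0670, 0.0674 and 0.0511), with changes of -1.07, -1.02 and -1.12.

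UGT85A5, a gene that raised salt tolerance when expressed in tobacco, read 7.23, 7.65 and 6.80 in mock and 6.64, 5.50 and 5.85 in SA leaves. The groups did not overlap, but the pair differences were uneven, at -0.59, -2.14 and -0.95. Its change of -1.23 ± 0.34 did not pass in either fit (limma adjusted p = 0.173, and 0.0672 with the block). The other 3 genes, UGT85A2, UGT85A3 and UGT85A7, had changes of 0.41 ± 0.28, 0.18 ± 0.13 and -0.080 ± 0.11.

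UGT87A2, the single member of group 87 and a regulator of flowering time, read 10.82, 9.50 and 9.57 in mock leaves and 11.77, 11.19 and 10.98 in SA leaves. The array numbered 1 was the highest in each group, and the highest mock array lay only 0.17 below the lowest SA array. The change of 1.35 ± 0.40 (2.55-fold) had a limma adjusted p of 0.195 without the block and 0.00918 with it. Its SA minus mock difference was 0.95 in pair 1, 1.69 in pair 2 and 1.41 in pair 3.

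**Figure D4:**
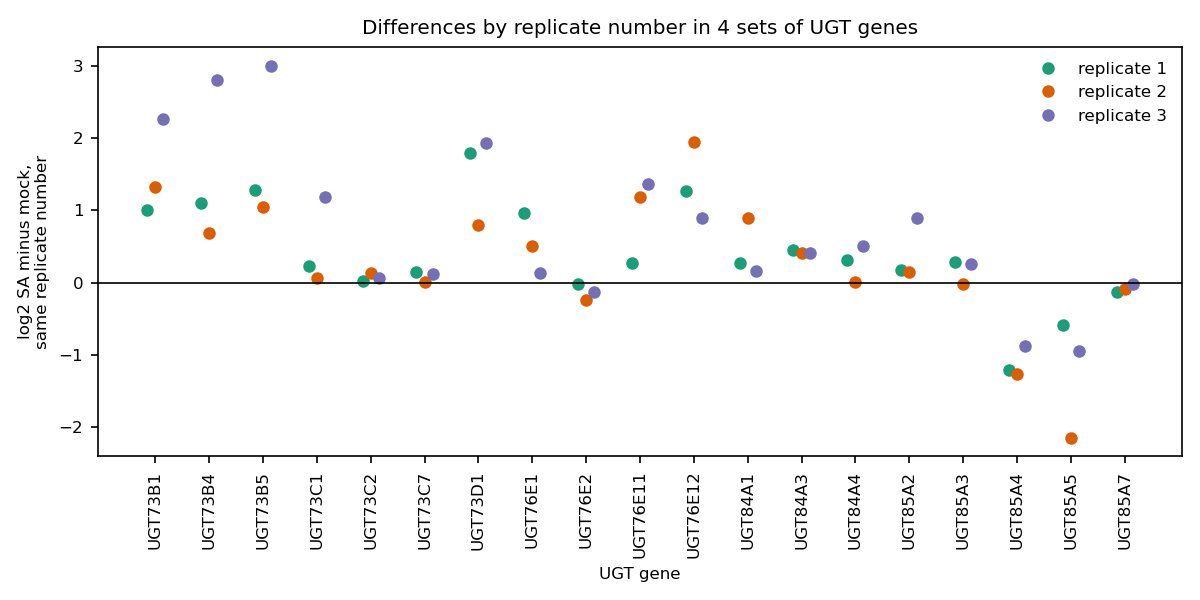
Log2 difference (SA minus mock, vertical axis) between arrays of the same replicate number for the measured UGT73, UGT76E, UGT84A and UGT85A genes, sets chosen for display after their values were seen. The 3 points of UGT84A3 lie between 0.41 and 0.45, while those of UGT73B5 run from 1.05 to 3.00.

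Group 71 includes enzymes acting on abscisic acid, phenylpropanoids and methyl salicylate, and 6 of its 9 genes had a negative change. UGT71C4 read 9.76, 9.97 and 9.69 in mock and 9.21, 9.53 and 9.37 in SA leaves. Its SA arrays were all below its mock arrays, and its change of -0.44 ± 0.13 passed only with the block (limma adjusted p = 0.0404, against 0.184 without). In the RefSeq annotation UGT71C4 overlaps its neighbour UGT71C3, which had a change of -0.42. The probe sets of these genes may therefore not be independent, and the part of this in their changes was not tested. UGT71B1 read 9.28, 9.22 and 8.90 in mock and 8.50, 8.93 and 8.31 in SA leaves, with SA replicate 2 just above mock replicate 3. Its change of -0.55 ± 0.19 passed narrowly and only with the block (limma adjusted p = 0.0481, against 0.265 without).

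The abscisic acid glucosyltransferases UGT71B6 and UGT71C5 had changes of 0.74 ± 0.38 and 0.18 ± 0.19. UGT71B6 was higher in every pair, by 0.47, 0.44 and 1.31, and passed in neither fit (limma adjusted p = 0.492, and 0.0801 with the block). UGT71C1 had pair differences of 0.36, 0.42 and 0.49, and its change of 0.42 passed only with the block (limma adjusted p = 0.0361, against 0.421 without). It was among the 7 members below the 25th percentile of mean signal, and it did not pass in the block fit with 32 linear units added. The remaining genes, UGT71B5, UGT71B8 and UGT71C2, had changes of -0.041, -0.090 and -0.073.

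Group 72 acts largely on lignin precursors. UGT72B3 passed only with the block, with pair differences of -0.52, -0.58 and -0.68 around a change of -0.60 (limma adjusted p = 0.0153, against 0.522 without); the change was -0.34 without mock replicate 2 and -0.36 without SA replicate 3. UGT72E1, which glucosylates coniferaldehyde, had a change of -0.42 ± 0.24, and the monolignol glucosyltransferases UGT72E2 and UGT72E3 had 0.20 and 0.064. The rule did not take 4 measured genes that carry a UGT name only as a synonym. Of these, GT72B1, also called UGT72B1, had a change of 1.52 ± 0.30 (limma adjusted p = 0.0751, and 0.0276 with the block). The other 3, UF3GT, SGT and AT5G54010, had changes of -0.32, -0.20 and 0.036 and passed in neither fit.

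In group 74, UGT74D1, an auxin glucosyltransferase, was higher in each pair, by 0.37, 0.62 and 0.86. Its change of 0.62 passed only with the block (limma adjusted p = 0.0340, against 0.377 without). UGT74B1, which adds the glucose in glucosinolate synthesis, was lower in each pair and had a change of -0.52 ± 0.26 that passed in neither fit (limma adjusted p = 0.471, and 0.0634 with the block). In group 84, the 3 measured A genes, which make glucose esters of hydroxycinnamic acids, had changes of 0.45 in UGT84A1, 0.42 in UGT84A3 and 0.28 in UGT84A4. UGT84A3 passed only with the block (limma adjusted p = 0.0329, against 0.407 without), with pair differences of 0.45, 0.41 and 0.41. The auxin glucosyltransferase UGT84B1 and its neighbour UGT84B2 had 0.17 and -0.016.

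Group 78 attaches sugars to flavonoids. UGT78D1, a flavonol rhamnosyltransferase, read 8.80, 8.86 and 8.26 in mock and 7.24, 8.66 and 7.15 in SA leaves. SA replicate 2 lay within the mock range and the other 2 SA arrays well below it. The change was -0.96 ± 0.43 (limma adjusted p = 0.401, and 0.0862 with the block), and it ran from -1.45 without SA replicate 2 to -0.69 without SA replicate 3. UGT78D2, a flavonoid glucosyltransferase, and UGT78D3, a flavonol arabinosyltransferase, had changes of -0.17 and -0.041. UGT80B1, a sterol glucosyltransferase, had 0.027, and UGT88A1 had -0.32 ± 0.14.

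Neighbours in the genome were compared within arrays for 18 pairs of members with at most 3 protein-coding genes between them, pairs set out after the values were known. In 5 of the 18 pairs the difference between the genes' signals did not overlap between SA and mock arrays. The share of such pairs among all neighbouring genes was not computed, so the count is not read as a result about neighbours. For the signals of single genes, 8.57% of all genes lay wholly above mock and 9.45% wholly below. UGT85A2 and UGT85A5, side by side on chromosome 1, differed in their change by 1.64 ± 0.33 (SE), and UGT85A5 and UGT85A3 by -1.40 ± 0.45. UGT73D1 and the adjoining UGT73C7 differed by 1.42 ± 0.34. For each of these pairs the two-sided exact permutation p was 0.1, the smallest that 3 arrays against 3 allow, and 0.36 after Benjamini-Hochberg adjustment over the 18 pairs. The changes of UGT73B5 and UGT73B4 differed by 0.25 ± 0.24, those of UGT76E12 and UGT76E11 by 0.43 ± 0.62, and those of UGT84A1 and UGT84A3 by 0.021 ± 0.43 (exact permutation p of 0.3, 0.6 and 1.0).

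Genes that work beside UGTs were represented by few measured members. Measured means here that the gene was fitted, with a probe set annotated to it alone. A listed gene that was not fitted may still have a signal among the 8730 unnamed probe sets or the 503 with several genes. Of 54 listed detoxification partners, 13 were measured and none passed limma without the block (0 calls), while 3 had an unadjusted p below 0.05, where 13.8% of all genes did. With the block 2 of the 13 passed, where 9.91% of all genes did. GSTU27, a glutathione transferase, had a change of 0.66 (limma adjusted p = 0.0146, against 0.339 without the block). GSTU18, another, had -0.92 (limma adjusted p = 0.00588, against 0.105 without the block). The alkenal reductase AER had 1.01 and passed in neither fit (limma adjusted p = 0.266, and 0.106 with the block). The median of these 13 was 0.094. Of 2 measured flavonoid genes, DFR had -0.39 ± 1.03 and BAN 0.0031. Mock signals of DFR ran from 6.61 to 9.91, and it passed in neither fit (limma adjusted p = 0.960, and 0.135 with the block). The monolignol gene HCT had -0.37, and the glucosinolate gene BCAT4 had -0.18. Of 2 measured SA genes, BSMT1, a methyltransferase, had -0.83 and WES1 0.14. Of 5 measured hormone turnover genes, WES1 among them, GH3.3, an enzyme conjugating auxin to amino acids, had a change of 1.94. The change of GH3.3 passed only with the block (limma adjusted p = 0.00364, against 0.162 without). GH3.9 had a change of 0.27.

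Defining markers of the labelled tissue gave these values. The mesophyll genes RCA, LHCB4.2 and PRK, 3 of 7 listed, had mean mock signals of 13.99, 13.59 and 13.03 and changes of 0.0044, -0.23 and -0.25. FMA of guard cells, 1 of 4, and TRY of trichomes, 1 of 4, had changes of -0.22 and -0.36. Of 5 root markers 1 was among the genes fitted, PYK10, a beta-glucosidase abundant in roots. Signals of PYK10 were 5.00 to 5.55 in mock and 6.52 to 7.80 in SA leaves. Its change of 1.65 ± 0.36 passed only with the block (limma adjusted p = 0.0176, against 0.0979 without), with its largest difference in pair 3 (2.36), where UGT73B5 had 3.00; its part in the UGT results was not tested. No phloem or flower marker was analysed here.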

How the data were processed

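Per the submitters' processing notes, the authors made the deposited log2 signals with RMA, which corrects background, applies quantile normalization and summarises the probes of a set; the version is not given in the sources used here. Quantile normalization would remove a shift shared by most transcripts. Of 22810 probe sets, 64 controls were left out. The platform annotation lists 14016 of the other 22746, 13513 with 1 gene, 503 with several and 8730 unnamed here, and 13436 matched a RefSeq locus (TAIR10.1) by gene identifier. The brightest probe set per locus gave 13286 genes. No member had more than 1.

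SA and mock were compared with limma 3.58.1 in R 4.3.3 (lmFit, eBayes, with treatment alone in the design), and calls were made where the Benjamini-Hochberg adjusted p fell below 0.05. Changes have the fit's standard error. The p-values measure the spread between 3 arrays a group, whose number limits precision. Pairing by replicate number comes from the values: deviations correlated by more than 0.1 in all 3 pairs (mock 3 with SA 2 also reached 0.15). The block lowered the median residual SD from 0.177 to 0.115 and the residual degrees of freedom from 4 to 2. The script was tested on simulated data.

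The members and lists were chosen with earlier results of these data known. The naming rule gives every array for called members and the 12 smallest p; 27 members fall under it, counting the largest change and highest mean of each group and 6 chosen genes, and the other 19 are given by change only. Alternatives covered the block, filter, probe sets, scaling, normalization, added units, weights, variance prior and left-out arrays. Sequences were not used here, so planned promoter and protein descriptions were not made.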

Additional observations from a re-analysis of the deposited data

Results flagged for a closer look

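The annotation gives 3 probe sets to several genes of which 1 or more is a UGT, so they name no member and enter no comparison above. On 2 of them every SA array lay above every mock array. On the third, 260379_at, with a gene of group 89, the groups overlapped and the change was -0.19 ± 0.16. It passed in neither fit (limma adjusted p = 0.750 over all probe sets, and 0.276 with the replicate block). Probe set 253268_s_at, annotated to several genes of group 73, read 9.91, 8.52 and 8.67 in mock and 11.16, 10.92 and 11.52 in SA leaves, a change of 2.17 ± 0.39 log2 units (limma adjusted p = 0.0594 over all probe sets, and 0.0167 with the replicate block). Mock replicate 1 was the highest mock array there. Probe set 266643_s_at, annotated to several genes, 1 of them of group 71, had a change of 0.58 ± 0.22 (adjusted p = 0.294, and 0.0600 with the block), with SA replicate 3 only 0.0064 above the highest mock array.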

How the results depend on the processing

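Without the replicate block, 1 member passed (UGT85A4). No member passed with the arrays centred on their medians, with 32 linear units added or with both arrays of any 1 number left out (0 members each). Array weights gave 3 members, UGT76E12, UGT85A4 and UGT85A5, and the fits without 1 array gave 0 to 1. A trended and robust variance prior also gave 1 member, UGT76E12 in place of UGT85A4. Over all genes, 217 calls became 1316 with the block, 479 with array weights, 334 over all probe sets, 135 with 32 units added, 5 to 57 without 1 array and 4, 0 and 0 without both arrays numbered 1, 2 and 3.

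With the replicate block, 11 members passed. In alternatives chosen after seeing the data, 32 units added to the block fit gave 5 members, where 1020 of all genes passed. The block fits without both arrays numbered 1, 2 or 3 gave 3, 11 and 6 members. All-gene calls there were 404, 813 and 815, and 2, 6 and 4 of the members were among the first 11. All probe sets, centring and repeated quantile normalization gave 10, 12 and 10, with 10, 10 and 9 among the first 11. The filter gave 12 of the 21 members it kept, with 7 among the first 11, where 1342 of 6643 genes passed. The block was given beside each result whose call it changed, and it changed no other call among the named members.

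The median change of the members was -0.0092 among the 21 whose mean signal reached the median of all genes. The other alternatives moved it by less than the spread of 0.062 between arrays. Over all 46 members, 10 had a change of the opposite sign in at least 1 alternative, each with a change of at most 0.18 in size over all arrays. Of the 27 genes named by the rule, 3 were among them. UGT80B1 had -0.095 with array weights, -0.12 without both arrays numbered 1 and -0.20 to 0.15 without 1 array. UGT78D2 had 0.0069 without both arrays numbered 1 and -0.45 to 0.019 without 1 array, and UGT71C5 had -0.0036 to 0.28. In these cases the cause was not tested. The table holds no detection calls, so it does not show whether the 7 members below the 25th percentile of mean signal were above background. The same limit holds in mock leaves for UGT73B4, UGT73D1 and UGT76E12, whose changes exceeded 1 log2 unit. Their mock signals lay below the 25th percentile of each mock array (5.23, 5.27 and 5.36 in replicates 1 to 3).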
